A study of Mus musculus with 12 samples.

Results

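The genes described here are 10 genes of the piRNA pathway, namely *Piwil1*, *Piwil2*, *Tdrd1*, *Tdrd7*, *Tdrd9*, *Tdrkh*, *Ddx4*, *Mov10l1*, *Mael* and *Asz1*. They were read through every probeset whose platform annotation names exactly 1 of them, which gave 12 probesets among the 45037 tested. *Tdrd7* and *Asz1* had 2 probesets each and the other 8 genes had 1. The arrays carried RNA from flow-sorted testicular cells of PWD males (PWD/Ph, an inbred strain of the subspecies *M. m. musculus*) and of B6 males (C57BL/6J, the common laboratory strain, largely *M. m. domesticus*), 8 to 10 weeks old per the labels. The labels name no treatment, and the design text gives duplicates from 2 animals. In each strain 3 populations were sorted, namely LP (leptotene, zygotene and early pachytene spermatocytes), RP (mid-late pachytene and diplotene spermatocytes) and ST (spermatids). With 2 arrays for each of these 6 groups there were 12 arrays, and the question addressed here is how the expression of these genes differed between populations and between the strains within a population.

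piRNAs are short RNAs of the germ line that bind PIWI proteins and guide the silencing of transposons. In the mouse testis, one class of them is made before meiosis and another, far more abundant class appears in pachytene spermatocytes. Long precursor transcripts are unwound by a helicase, cut and trimmed at the outer membrane of mitochondria, and loaded onto PIWI proteins, while Tudor domain proteins bind methylated arginines of PIWI proteins and hold the complexes together in cytoplasmic granules (intermitochondrial cement in spermatocytes and the chromatoid body in spermatids).

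All values below are deposited log2 expression values, so that a difference of 1 is a 2-fold difference. A background level of 4.65 was taken from genes of other organs (44 probesets of 27 such genes, whose means had this as their 95th percentile), and 16999 probesets had a mean above it. Of the 12 probesets of piRNA pathway genes, 11 were above it, and the second probeset of *Tdrd7*, with values from 2.46 to 2.93, was below it. Levels were not compared between probesets, because their probes differ in affinity. A difference was called when its adjusted p, from one limma fit over all probesets with Benjamini-Hochberg adjustment, was under 0.05. Where arrays of different groups are said not to overlap, this describes the same values and is no support beyond the call.

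The populations were compared with marker genes of the stages. Relative to LP, all 10 of 10 measured prepachytene markers were lower in RP and 8 of 9 pachytene markers were higher, and relative to RP all 10 of 10 spermatid markers were higher in ST. The mean log2 value of the 10 spermatid markers was 11.1 and 11.5 on the PWD LP arrays and 10.5 and 10.3 on the B6 LP arrays, 10.1 and 9.38 in PWD RP and 9.55 and 9.41 in B6 RP, and 12.7 and 13.2 in PWD ST and 13.61 on both B6 ST arrays. The LP arrays thus carried transcripts of spermatids, and relative to LP 6 of these markers were lower in RP and 2 higher. The mean of 10 Sertoli cell markers was 8.03 and 7.62 in PWD LP and 6.87 and 6.49 in B6 LP, 4.05 to 4.58 in RP and 4.72 to 5.57 in ST. Of these markers 7 were lower in RP than in LP and 1 higher, while *Amh* (means of 1.44 in both strains), *Defb45* and *Sox9* were below background in LP of both strains. In B6 LP *Wt1* (mean of 3.67) and *Inhbb* (3.18) were below it as well. The mean of 9 spermatogonia markers was 6.62 and 7.35 in PWD LP and 6.53 and 6.43 in B6 LP, 3.75 to 3.95 in RP and 3.62 to 4.23 in ST, and 5 of them were lower in RP than in LP. Between the strains in LP, 4 spermatid markers were higher in PWD and 0 lower, and 4 Sertoli cell markers were higher and 1 lower. Among those Sertoli cell markers were *Inhbb* (higher), below background in B6 LP, and *Sox9* (lower), below it in both strains. Of the 9 pachytene markers, *Spink2* (1.96), *Spata16* (1.56) and *Pgk2* (0.79) were higher in PWD LP and *Aurkc* (-3.98) was lower, of the 10 prepachytene markers *Dmc1* (-0.99) was lower, and of the 9 spermatogonia markers *Sohlh1* (2.75) was higher and *Sohlh2* (-1.04) lower. The part that these cells have in the differences from LP, and in the differences between strains in LP, was not tested. In a sorted population, fewer cells of a type and less RNA per cell cannot be told apart. The correlation between the 2 arrays of a group lay between 0.987 (PWD LP) and 0.996 (B6 RP). The labels do not say which animal a replicate is from, so that p-values rest on how far apart the 2 samples of a group were. This spread was pooled over the 6 groups in the fit, and so is not that of the compared groups alone.

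Because 3 genes of the pathway were higher in RP than in LP and 4 were lower (values below), the promoters of 5 of them are printed here. The windows run from 250 bases before to 50 bases after a RefSeq start site, 5′ to 3′ on the strand of the gene, on build GRCm38.p6, and were found for 9 of the 10 genes. Capitals mark the MYB words CAACGG and CAACTG, as well as TAACGG and TAACTG, or their reverse complements on the other strand (both strands were searched). These words were chosen after the values were seen, since *Mybl1* (A-MYB, a transcription factor known to drive pachytene piRNA precursors and genes of the pathway in mouse) is on the list of other pathway genes. CAACTG is also a form of the E-box CANNTG, so that such a match belongs to both. *Piwil1* and *Tdrd7* were higher in RP with 2 matches each in the window printed, *Tdrd1* was higher in RP with none in any of its 3 windows, and *Mov10l1* and *Tdrkh* were lower in RP with 1 match each.
Piwil1, chr5:128735996-128736295, plus strand: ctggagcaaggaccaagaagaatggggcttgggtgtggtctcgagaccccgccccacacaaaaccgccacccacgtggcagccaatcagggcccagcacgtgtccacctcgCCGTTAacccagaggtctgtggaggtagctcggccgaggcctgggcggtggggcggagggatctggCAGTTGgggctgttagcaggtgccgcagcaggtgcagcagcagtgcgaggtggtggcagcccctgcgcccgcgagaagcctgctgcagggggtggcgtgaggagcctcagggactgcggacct
Tdrd7, chr4:45965085-45965384, plus strand: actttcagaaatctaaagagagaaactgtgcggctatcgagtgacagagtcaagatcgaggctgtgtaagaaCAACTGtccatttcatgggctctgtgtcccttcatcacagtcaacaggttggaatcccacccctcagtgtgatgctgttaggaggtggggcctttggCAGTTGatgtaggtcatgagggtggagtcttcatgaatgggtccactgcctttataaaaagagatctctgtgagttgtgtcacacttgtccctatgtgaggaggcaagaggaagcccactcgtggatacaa
Tdrd1, chr19:56825959-56826258, plus strand: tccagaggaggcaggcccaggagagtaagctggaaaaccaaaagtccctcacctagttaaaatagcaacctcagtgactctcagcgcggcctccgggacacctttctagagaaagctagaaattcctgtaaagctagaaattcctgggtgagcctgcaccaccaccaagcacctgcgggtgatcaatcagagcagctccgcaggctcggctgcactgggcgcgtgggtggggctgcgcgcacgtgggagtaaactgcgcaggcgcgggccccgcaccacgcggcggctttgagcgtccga
Mov10l1, chr15:88982744-88983043, plus strand: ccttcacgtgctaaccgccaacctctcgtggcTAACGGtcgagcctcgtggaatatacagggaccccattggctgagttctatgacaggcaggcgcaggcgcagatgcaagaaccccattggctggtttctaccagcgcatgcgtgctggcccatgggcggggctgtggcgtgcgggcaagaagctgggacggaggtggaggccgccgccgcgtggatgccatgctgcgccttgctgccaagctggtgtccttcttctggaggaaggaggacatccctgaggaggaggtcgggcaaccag
Tdrkh, chr3:94412994-94413293, plus strand: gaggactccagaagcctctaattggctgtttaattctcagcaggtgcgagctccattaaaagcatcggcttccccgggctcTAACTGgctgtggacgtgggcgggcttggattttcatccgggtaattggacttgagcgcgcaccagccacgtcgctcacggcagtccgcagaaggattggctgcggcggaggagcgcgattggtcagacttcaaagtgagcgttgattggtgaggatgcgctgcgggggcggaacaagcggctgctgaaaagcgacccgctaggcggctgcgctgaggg
The first letter of a match lay at -139 (CCGTTA) and -73 (CAGTTG) from the start site of *Piwil1*, at -178 (CAACTG) and -81 (CAGTTG) for this window of *Tdrd7*, at -218 (TAACGG) for *Mov10l1* and at -169 (TAACTG) for *Tdrkh*. A further window of *Tdrd7* held 1 and another held none, and those of *Tdrd9*, *Ddx4*, *Mael* and *Asz1* held none. Windows of 1 gene were counted separately, also where they overlap. Of the 13 windows of these 9 genes, 5 (38.5%) had a match, against 28.3% of all 32851 windows of this length, and 2 (15.4%) had 2 or more, against 5.09% of all windows. The median GC content was 63.0% in the 13 windows and 52.7% in all windows, and its part in these shares was not tested. A match is a description of the letters and says nothing on binding of the factor.

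**Figure D1:**
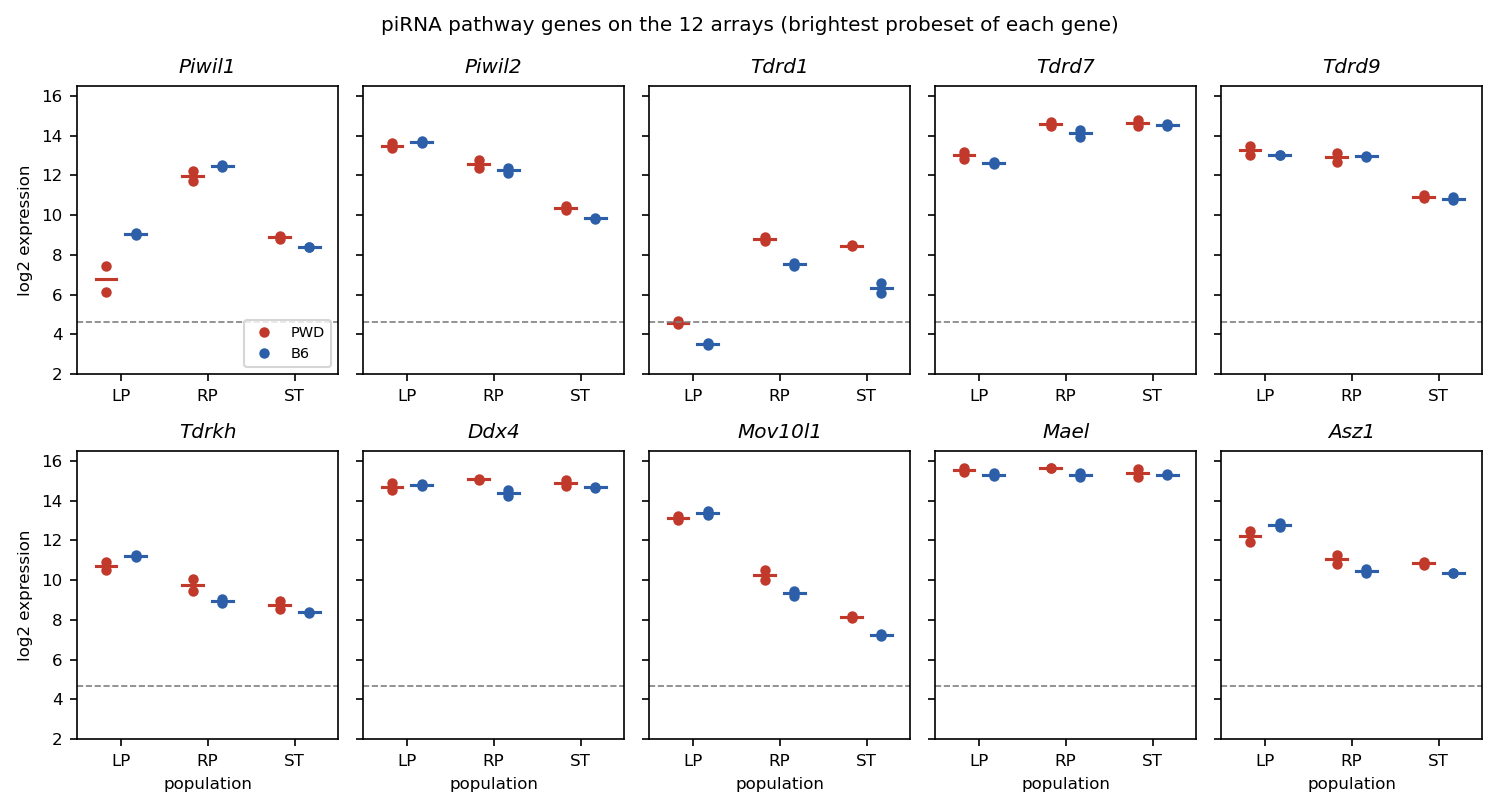
Log2 expression (y axis) of each gene's brightest probeset in the populations LP, RP and ST (x axis), with PWD arrays in red left of B6 arrays in blue; points are arrays, bars the mean of the 2 arrays of a group, and a dashed line marks 4.65, the background level. *Piwil1* peaks in RP in both strains, *Tdrd1* lies near or below the background level in LP only, *Mov10l1* and *Piwil2* step down at both transitions, and *Ddx4* and *Mael* lie between 14.25 and 15.65 on every array.

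Among PIWI proteins, *Piwil1* (MIWI, the PIWI protein of pachytene spermatocytes and round spermatids, chr5:128736071-128755474) rose into RP and fell again in ST. Its log2 values were 7.46 and 6.11 in PWD LP and 9.09 and 8.99 in B6 LP, 11.72 and 12.23 in PWD RP and 12.51 and 12.44 in B6 RP, and 8.83 and 8.96 in PWD ST and 8.41 and 8.40 in B6 ST. Every RP array was above every LP and every ST array. Averaged over the strains, RP exceeded LP by 4.31 (SE 0.27, 19.8-fold, adjusted p = 2.7e-06, limma) and ST was lower than RP, with a difference of -3.58 (SE 0.27, adjusted p = 2.3e-05). *Piwil2* (MILI, the PIWI protein present from fetal germ cells to round spermatids, chr14:70372477-70436898) instead stepped down at both transitions. Its values were 13.64 and 13.36 in PWD LP and 13.74 and 13.63 in B6 LP, 12.38 and 12.77 in PWD RP and 12.37 and 12.14 in B6 RP, and 10.24 and 10.47 in PWD ST and 9.82 and 9.88 in B6 ST. No array of one population overlapped with those of the next, and the differences were -1.18 for RP minus LP (SE 0.12, adjusted p = 5.3e-05) and -2.31 for ST minus RP (SE 0.12, adjusted p = 4.1e-06).

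The 4 Tudor proteins followed 4 different courses. *Tdrd1* (a partner of MILI in the intermitochondrial cement, chr19:56826171-56870012) had values of 4.53 and 4.68 in PWD LP and 3.57 and 3.48 in B6 LP, which is near or below the background level, and 8.92 and 8.68 in PWD RP and 7.59 and 7.46 in B6 RP, with 8.46 and 8.48 in PWD ST and 6.10 and 6.58 in B6 ST. It was higher in RP than in LP by 4.10 (SE 0.13, adjusted p = 8.1e-08), a size that rests on LP values near background, and lower in ST than in RP, with a difference of -0.76 (SE 0.13, adjusted p = 0.0025). The ST minus RP difference was -0.33 in PWD (95% interval -0.77 to 0.11, adjusted p = 0.263) and -1.18 in B6 (adjusted p = 0.0020), and the difference between the strains in this step did not pass the test (0.85, 95% interval 0.23 to 1.47, adjusted p = 0.106). *Tdrd7* (a scaffold of the chromatoid body, chr4:45965027-46034766) rose to RP. Its values were 12.84 and 13.17 in PWD LP and 12.60 and 12.69 in B6 LP, 14.67 and 14.47 in PWD RP and 14.30 and 13.95 in B6 RP, and 14.48 and 14.80 in PWD ST and 14.57 and 14.49 in B6 ST. No RP array overlapped with an LP array, RP exceeded LP by 1.52 (SE 0.12, adjusted p = 1.1e-05) and ST minus RP was 0.24 (95% interval -0.04 to 0.52, adjusted p = 0.220). This second step was called higher in ST under both other scalings, after quantile normalization again (0.43, adjusted p = 0.0089) and with arrays centred on the probesets above background (0.46, adjusted p = 0.0035). The second probeset of *Tdrd7*, below background, was higher in RP than in LP by 0.17 (adjusted p = 0.010), and after centring it was also called higher in ST than in RP (0.28, adjusted p = 0.012).

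*Tdrd9* (an RNA helicase with a Tudor domain that acts in transposon silencing, chr12:111971488-112068854) was lower in ST. Its values were 13.51 and 13.05 in PWD LP and 13.03 and 13.04 in B6 LP, 12.67 and 13.15 in PWD RP and 12.98 and 12.95 in B6 RP, and 10.84 and 11.03 in PWD ST and 10.74 and 10.93 in B6 ST. The LP and RP arrays overlapped, and all 4 ST arrays lay below them, with ST minus RP at -2.05 (SE 0.14, adjusted p = 1.3e-05) and RP minus LP at -0.22 (95% interval -0.54 to 0.10, adjusted p = 0.185). *Tdrkh* (an adaptor that holds PIWI proteins at mitochondria during piRNA trimming, chr3:94413243-94434854) stepped down at each transition when averaged over the strains. The first of these steps was smaller in PWD than in B6 (values below). *Tdrkh* had 10.53 and 10.89 in PWD LP and 11.15 and 11.28 in B6 LP, 9.43 and 10.06 in PWD RP and 9.05 and 8.86 in B6 RP, and 8.57 and 8.97 in PWD ST and 8.36 and 8.39 in B6 ST. The differences were -1.61 for RP minus LP (SE 0.17, adjusted p = 6.9e-05) and -0.78 for ST minus RP (SE 0.17, adjusted p = 0.0079), and the ST and RP arrays overlapped across the strains. In PWD alone ST minus RP was -0.98 (adjusted p = 0.018), and in B6 alone it was -0.58 and did not pass (adjusted p = 0.116).

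The 2 helicases differed. *Mov10l1* (the helicase that feeds piRNA precursors into processing, chr15:88982891-89055152) showed the largest decrease among these 10 genes between LP and RP. Its values were 13.20 and 13.00 in PWD LP and 13.27 and 13.47 in B6 LP, 10.00 and 10.53 in PWD RP and 9.45 and 9.20 in B6 RP, and 8.17 and 8.11 in PWD ST and 7.31 and 7.19 in B6 ST. The populations did not overlap, with -3.44 for RP minus LP (SE 0.13, 10.8-fold lower, adjusted p = 2.0e-07) and -2.10 for ST minus RP (SE 0.13, 4.29-fold lower, adjusted p = 1.0e-05). *Ddx4* (mouse vasa homologue, a helicase found in germ cells at all these stages, chr13:112598333-112652633) had 14.86 and 14.51 in PWD LP and 14.74 and 14.81 in B6 LP, 15.05 and 15.09 in PWD RP and 14.53 and 14.25 in B6 RP, and 14.74 and 15.03 in PWD ST and 14.70 and 14.63 in B6 ST. Averaged over the strains, neither comparison of populations passed the test, with 0.00 for RP minus LP (95% interval -0.24 to 0.25, adjusted p = 0.977) and 0.04 for ST minus RP (95% interval -0.20 to 0.28, adjusted p = 0.917). The 0.00 is the mean of changes of opposite sign. In PWD, RP was called higher than LP by 0.39 (adjusted p = 0.049), whereas RP minus LP was -0.38 in B6 (adjusted p = 0.079). With arrays centred on the probesets above background, *Ddx4* was called higher in RP than in LP (0.26, adjusted p = 0.018) and in ST than in RP (0.27, adjusted p = 0.022), and after quantile normalization again in ST than in RP (0.25, adjusted p = 0.011).

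Of the other factors, *Mael* (maelstrom, a nuage protein needed for transposon silencing, chr1:166201385-166238744) passed neither comparison of populations in the deposited values. Its values were 15.61 and 15.44 in PWD LP and 15.37 and 15.23 in B6 LP, 15.63 and 15.65 in PWD RP and 15.37 and 15.20 in B6 RP, and 15.16 and 15.56 in PWD ST and 15.28 and 15.32 in B6 ST. RP minus LP was 0.05 (95% interval -0.17 to 0.26, adjusted p = 0.675) and ST minus RP was -0.13 (95% interval -0.35 to 0.09, adjusted p = 0.440). *Mael* was called higher in RP than in LP under both other scalings, by 0.15 after quantile normalization again (adjusted p = 0.029) and by 0.30 after centring (adjusted p = 0.0020). *Asz1* (GASZ, a mitochondrial protein that organizes the intermitochondrial cement, chr6:18050964-18109061) was lower in RP than in LP and did not pass the test after that. It had 12.48 and 11.91 in PWD LP and 12.88 and 12.69 in B6 LP, 10.80 and 11.28 in PWD RP and 10.57 and 10.35 in B6 RP, and 10.92 and 10.75 in PWD ST and 10.37 and 10.36 in B6 ST. Every RP array lay below every LP array, with a difference of -1.74 (SE 0.16, adjusted p = 2.6e-05), while ST minus RP was -0.15 (95% interval -0.52 to 0.21, adjusted p = 0.635). The second, dimmer *Asz1* probeset had the same order, with -1.96 for RP minus LP (adjusted p = 2.0e-04) and -0.20 for ST minus RP, which did not pass the test.

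Over all 12 probesets, 4 were higher in RP than in LP and 5 were lower, where 44.3% of all tested probesets were called higher and 24.6% lower. Between ST and RP, 0 of the 12 were called higher and 6 were called lower, where 12.1% of all probesets were called higher and 18.4% lower. None was higher at an unadjusted p under 0.05 in limma either, a threshold at which all probesets were not counted. These counts depended on the scaling. After quantile normalization again 2 were higher and 6 lower in ST than in RP (*Tdrd7* and *Ddx4* higher), and after centring 3 were higher and 6 lower (*Ddx4* and both *Tdrd7* probesets higher). In RP relative to LP, 5 were higher and 5 lower after quantile normalization again, and 6 were higher and 5 lower after centring. Counts of all probesets above background moved too. In ST relative to RP, 3828 were higher and 7256 lower in the deposited values. After quantile normalization again these were 4468 and 6478, and after centring 5109 and 6610. In RP relative to LP, 6534 were higher and 7248 lower, then 7823 and 6315, and 7580 and 6702. Among the 16999 probesets above background, which are nearer to these genes in level, 38.4% were higher and 42.6% lower in RP than in LP, and 22.5% were higher and 42.7% lower in ST than in RP. The median difference of the 12 probesets was -0.11 for RP minus LP and -0.48 for ST minus RP, beside -0.10 and -0.32 for all probesets above background and 0.07 and 0.00 for all probesets. In shares, 33.3% of the 12 probesets were higher and 41.7% lower in RP than in LP, near those of all probesets above background. In ST relative to RP 50% were lower, beside 42.7% of probesets above background. None were higher, beside 22.5%, but this count changed with the scaling. In terms of genes, *Piwil1*, *Tdrd1* and *Tdrd7* rose into RP, *Piwil2*, *Tdrkh*, *Mov10l1* and *Asz1* fell, and *Piwil1*, *Piwil2*, *Tdrd1*, *Tdrd9*, *Tdrkh* and *Mov10l1* were lower in ST than in RP.

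**Figure D2:**
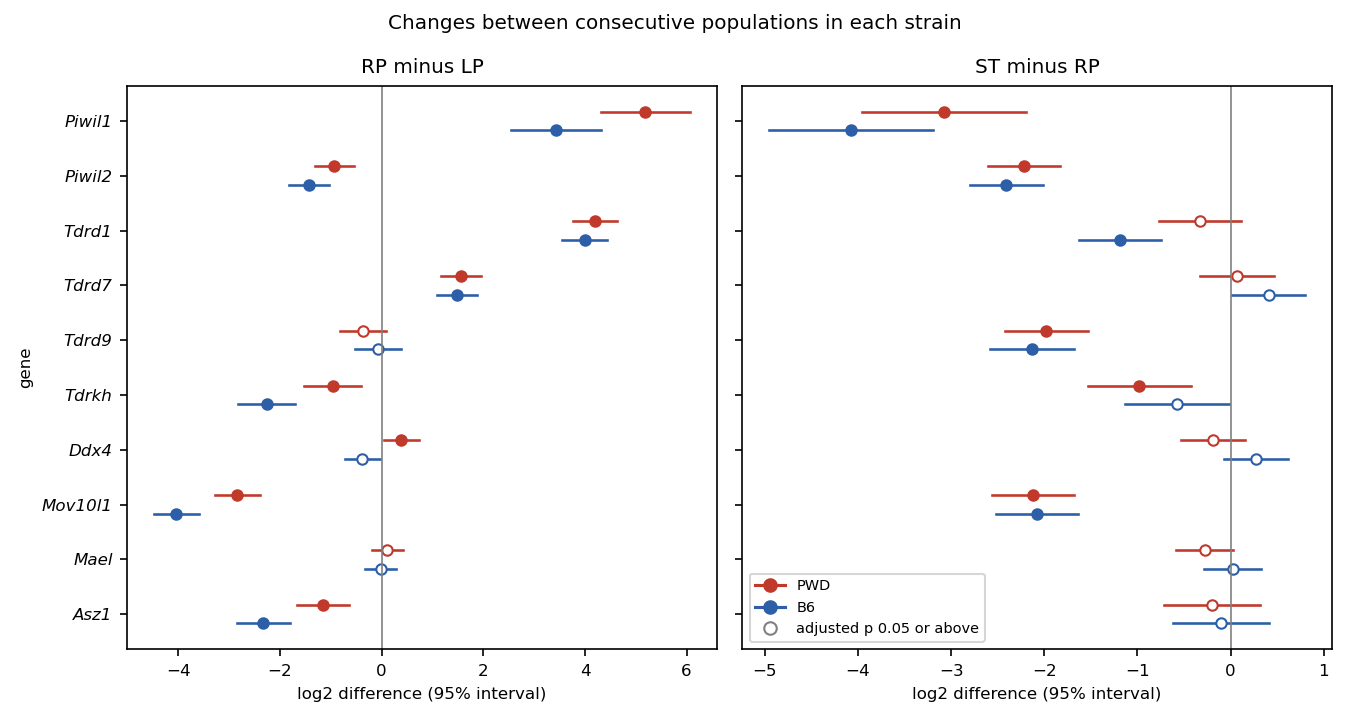
Log2 difference with its 95% interval (x axis) between consecutive populations in PWD (red, upper) and B6 (blue, lower) for each gene (y axis), RP minus LP on the left and ST minus RP on the right; open circles did not pass the adjusted p of 0.05. The 2 strains lie on the same side of 0 for each gene that passed in both, with the interval of *Piwil1* reaching further to the right in PWD and those of *Tdrkh*, *Mov10l1* and *Asz1* further to the left in B6.

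The strains were then compared within each population. In LP, 1 of the 12 probesets was called higher in PWD and 2 were called lower, where 11.9% of all probesets were higher and 6.72% lower (22.1% and 10.1% of those above background). Under either other scaling, 1 was higher and 4 were lower. All probesets above background moved the same way, from 3755 higher and 1718 lower in the deposited values. They had 3049 higher and 2878 lower after quantile normalization again, and 3389 and 3241 after centring. *Piwil1* was lower in PWD LP, 6.79 ± 0.95, than in B6 LP, 9.04 ± 0.07 (mean ± SD, n = 2 each), a difference of -2.26 (SE 0.38, 4.77-fold lower, adjusted p = 0.0047). Both PWD arrays lay below both B6 arrays, although the SD of PWD LP was the largest of the 6 groups for this gene, and the difference lay between -2.93 and -1.58 when 1 array was left out. *Tdrd1* was higher in PWD LP, 4.60 ± 0.11, than in B6 LP, 3.53 ± 0.06, by 1.07 (SE 0.19, adjusted p = 0.0057), both near or below background. The second probeset of *Asz1* was lower in PWD LP (6.47 on both arrays) than in B6 LP (8.00 and 7.90), a difference of -1.48 (adjusted p = 0.020). The brighter *Asz1* probeset lay on the same side, at -0.59 (95% interval -1.10 to -0.08, adjusted p = 0.119). It was called after centring (-0.82, adjusted p = 0.022) and with probesets above background only (adjusted p = 0.0498). The call of the second probeset was lost when any one of the 4 LP arrays was left out. *Tdrkh*, at -0.50 and not called in LP, was called lower after quantile normalization again (-0.74, adjusted p = 0.029) and after centring (-0.73, adjusted p = 0.031). *Ddx4* was called lower after quantile normalization again (-0.28, adjusted p = 0.044). Beside this, the mean of the 9 pachytene markers was 10.58 and 10.99 on the PWD LP arrays and 10.51 and 10.50 on the B6 LP arrays. With only the LP arrays in the fit, *Piwil1* and *Tdrd1* missed the threshold at adjusted p of 0.063 and 0.064.

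In RP, 3 probesets were called higher in PWD and 0 lower, where 8.64% of all probesets were higher and 4.19% lower (18.5% and 7.11% above background). At an unadjusted p under 0.05 in limma, 7 were higher and 0 lower. All probesets were not counted at that threshold, and the median strain difference of those above background was itself 0.31 in RP. *Tdrd1* was at 8.80 ± 0.17 in PWD RP and 7.52 ± 0.09 in B6 RP, higher by 1.28 (SE 0.19, 2.42-fold, adjusted p = 0.0038). *Mov10l1* was at 10.26 ± 0.37 in PWD RP and 9.33 ± 0.18 in B6 RP, higher by 0.93 (SE 0.19, adjusted p = 0.017), and *Ddx4* at 15.07 ± 0.03 in PWD RP and 14.39 ± 0.20 in B6 RP, higher by 0.68 (SE 0.15, adjusted p = 0.021). In all 3 genes both PWD arrays lay above both B6 arrays, which adds no support, since the genes were picked on these same arrays. The calls of the last 2 were less firm, since after another quantile normalization *Mov10l1* had 0.58 (adjusted p = 0.057) and *Ddx4* had 0.24 (adjusted p = 0.130). The call of *Mov10l1* was also lost without PWD RP replicate 2 (0.67, adjusted p = 0.062) or B6 RP replicate 2 (0.81, adjusted p = 0.111), and that of *Ddx4* without PWD RP replicate 1 (adjusted p = 0.065), PWD RP replicate 2 (0.094) or B6 RP replicate 2 (0.135). With only the RP arrays in the fit, none of the 3 passed (adjusted p of 0.055 to 0.093). PWD RP replicate 1 had a spermatid marker mean of 10.1, above 9.38 on PWD RP replicate 2. Of the 10 prepachytene markers, which like *Mov10l1* were high in LP, 4 were called higher in PWD RP and 0 lower, *Tex11* (2.20), *Meiob* (2.08), *Hormad2* (1.01) and *Smc1b* (0.82), and their mean was 6.22 and 5.96 on the PWD RP arrays and 5.61 and 5.46 on the B6 RP arrays. Of the 10 Sertoli cell markers *Ctsl* was higher in PWD RP (0.85), and of 9 pachytene markers 3 were higher and 1 lower. *Prm1* (0.83) of the 10 spermatid markers was also higher in PWD RP, and *Acta2* (-1.98) of 7 peritubular and blood markers was lower. The part of these cells in the strain differences was not tested. The differences of *Tdrd1*, *Mov10l1* and *Ddx4* were 1.16 or more, 0.67 or more and 0.54 or more without any one of the arrays.

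In ST, 2 probesets were called higher in PWD and 0 lower, where 6.36% of all probesets were higher and 5.52% lower (13.6% and 9.17% above background). At an unadjusted p under 0.05 in limma, 3 were higher and 1 lower, the second probeset of *Tdrd7*. All probesets were not counted at that threshold. *Tdrd1* showed the largest strain difference of the 10 genes in this population, 8.47 ± 0.02 in PWD ST and 6.34 ± 0.34 in B6 ST, higher by 2.13 (SE 0.19, 4.38-fold, adjusted p = 2.1e-04). *Mov10l1* was at 8.14 ± 0.04 in PWD ST and 7.25 ± 0.08 in B6 ST, higher by 0.89 (SE 0.19, adjusted p = 0.019). The *Mov10l1* difference lay between 0.83 and 0.95 when an array was left out, but without any one of the 4 ST arrays its adjusted p rose to 0.060 to 0.105. Of the 10 spermatid markers, 3 were called lower in PWD ST than in B6 ST and 0 higher. Markers of other cells were higher in PWD ST, namely *Ctsl* (1.76) and *Rhox5* (1.41) of the 10 Sertoli cell markers, *Cyp17a1* (3.31, with means of 5.87 in PWD ST and 2.56 in B6 ST) of the 4 Leydig cell markers and *Meiob* (2.07) of the 10 prepachytene markers, with 0 of these lists' genes lower. Among the 9 pachytene markers, *Slc25a31* (0.88) was called higher in PWD ST and *Aurkc* (-2.82) lower. The part of these cells in the strain differences was not tested.

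*Tdrd1* was thus called higher in PWD in all 3 populations. That every PWD array of a population lay above both B6 arrays describes the same values and is no separate test. The strain differences that were not called lay between -0.59 (*Asz1* in LP) and 0.80 (*Tdrkh* in RP). *Tdrkh* in RP was at 9.75 ± 0.45 in PWD and 8.95 ± 0.13 in B6, a difference of 0.80 (95% interval 0.24 to 1.35, adjusted p = 0.070). This difference was called with array weights (adjusted p = 0.028) and with probesets above background only (adjusted p = 0.025). Array weights also gave a call for *Asz1* in RP (0.575, adjusted p = 0.045). *Piwil2* in ST differed by 0.51 (95% interval 0.12 to 0.89, adjusted p = 0.108) and *Tdrd9* by 0.24, -0.06 and 0.10 in LP, RP and ST. After quantile normalization again *Piwil2* in ST was called higher in PWD (0.44, adjusted p = 0.049). The median strain difference of the 12 probesets was -0.14 in LP, 0.40 in RP and 0.31 in ST, beside 0.23, 0.31 and 0.07 for all probesets above background. Centring the arrays on the probesets above background shifted the median strain difference of those probesets by -0.23 in LP, -0.23 in RP and -0.08 in ST, and shifted RP minus LP by 0.26 and ST minus RP by 0.22, so that small differences between arrays depend on the scaling.

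**Figure D3:**
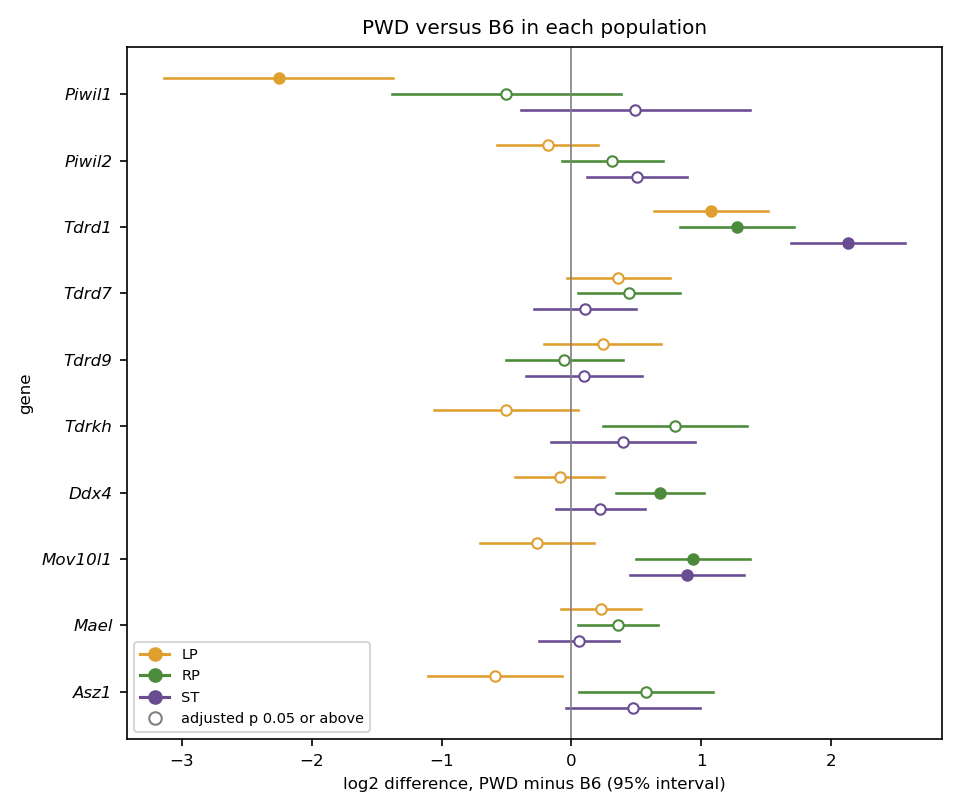
Log2 difference PWD minus B6 with its 95% interval (x axis) for each gene (y axis) in LP (orange), RP (green) and ST (purple); open circles did not pass the adjusted p of 0.05. *Tdrd1* is right of 0 in the 3 populations, *Piwil1* is left of 0 in LP at -2.26, and *Mov10l1* is right of 0 in RP and ST at 0.93 and 0.89.

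An F test over both steps asked if the strains differed by unlike amounts in the 3 populations. It passed for 2 of the 12 probesets, *Piwil1* (adjusted p = 0.026) and *Mov10l1* (adjusted p = 0.028), where 16.6% of all probesets and 23.4% of those above background passed. *Piwil1* had an RP minus LP difference of 5.19 in PWD and of 3.43 in B6, with PWD minus B6 at -2.26 in LP, -0.50 in RP and 0.49 in ST. Taken alone, neither of these steps passed for *Piwil1* (RP minus LP in PWD minus that in B6 was 1.75, adjusted p = 0.077). *Mov10l1* had an RP minus LP difference of -2.84 in PWD and of -4.04 in B6, and the difference of these differences was 1.20 (SE 0.27, adjusted p = 0.027). *Tdrkh* showed the same for that step alone, with -0.96 in PWD and -2.26 in B6, a difference of 1.30 (SE 0.34, adjusted p = 0.046). *Asz1*, with -1.16 in PWD and -2.32 in B6, was at 1.17 (95% interval 0.44 to 1.89, adjusted p = 0.052), and *Ddx4*, with 0.39 in PWD and -0.38 in B6, at 0.77 (95% interval 0.29 to 1.26, adjusted p = 0.052). For the step from RP to ST, 0 of the 12 probesets passed in limma, and 2 (*Tdrd1* and the second *Tdrd7* probeset) had an unadjusted p under 0.05. How many of all probesets passed for either step alone was not counted, so these counts cannot be set against a share. With the replicate number as a block, *Mov10l1* lost its F test call (adjusted p = 0.051) and *Piwil1* kept it (0.043). With a block within strain both missed the threshold (0.071 for *Piwil1* and 0.076 for *Mov10l1*), *Tdrkh* passed (0.025), and *Mov10l1* lost the call for the step from LP to RP (0.069). Single arrays changed these calls too. In the F test, *Piwil1* was at adjusted p of 6.6e-04 to 0.069 with 1 array left out, and missed the threshold without either B6 LP array, without B6 RP replicate 2 and without any one of the ST arrays. *Mov10l1* missed it, at up to 0.090, without PWD LP replicate 2, either B6 LP array, B6 RP replicate 2, PWD ST replicate 1 or B6 ST replicate 2. For the step from LP to RP, *Tdrkh* kept its call only without PWD LP replicate 2 and without PWD RP replicate 1, and *Mov10l1* lost it without PWD LP replicate 2, B6 LP replicate 2 or B6 RP replicate 2, at adjusted p of 0.062 to 0.095.

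Of a list of 22 further piRNA genes, 19 had a probeset naming them alone (*Tdrd6*, *Fkbp6* and *Spocd1* were not analysed here). In RP relative to LP, 8 of 19 (42.1%) were higher and 8 lower, where 38.4% of all probesets above background were higher and 42.6% lower. *Dnmt3l*, among the 8 higher (0.79), was below background on all LP and RP arrays, at 2.20 to 4.00. The largest differences were *Btbd18*, a nuclear factor of piRNA precursor transcription, at -7.02, *Tex15*, which acts in piRNA-guided DNA methylation, at -6.13, *Henmt1*, the methyltransferase of piRNA 3′ ends, at 5.97, and *Tex19.1*, a germ line protein linked to transposon control, at -4.01. *Henmt1* was below background on the 4 LP arrays, at 2.24 to 4.33, and *Btbd18* was below it on the 8 RP and ST arrays, at 2.29 to 3.50. In ST relative to RP, 4 of 19 (21.1%) were higher and 11 (57.9%) lower, where 22.5% of all probesets above background were higher and 42.7% lower. Among the 4 higher, *Rnf17* (1.24) depended on the probeset, since its dimmer probesets were called at -1.42, 0.85 and -1.06. *Btbd18* (0.68), also among them, rested on values below background. The largest differences were those of *Tdrd5*, a Tudor protein of the chromatoid body and pachytene piRNA processing, at -4.60, *Prmt5*, the arginine methyltransferase of PIWI proteins, at -3.37, *Tex15* at 3.19 and *Dnmt3l*, a cofactor of DNA methylation, at 2.88 (a mean over both strains, although its PWD ST arrays were below background). All of these passed the test. The median of the 19 genes was -0.10 for RP minus LP and -1.15 for ST minus RP, beside -0.10 and -0.32 for all probesets above background.

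Between the strains, 4 of the 19 genes were higher in PWD LP and 0 lower, 7 higher in PWD RP and 0 lower, and 8 higher in PWD ST and 1 lower. In shares, 21.1% were higher in PWD LP, 36.8% in PWD RP and 42.1% in PWD ST, where 22.1%, 18.5% and 13.6% of all probesets above background were higher in PWD in these populations and 10.1%, 7.11% and 9.17% lower. At an unadjusted p under 0.05 in limma, 3 were lower in PWD LP and 0 in PWD RP, without a count of all probesets at that threshold. In LP the largest differences were those of *Morc1*, a nuclear protein of transposon silencing (1.88), *Mybl1* (1.36), *Snd1*, a nuclease with a Tudor domain (0.87), and *Gtsf1*, a partner of PIWI proteins (0.55), the last of which lost its call in 18 of 21 alternatives. The call of *Mybl1* in LP was lost without B6 LP replicate 1 (adjusted p = 0.069) or 2 (0.077). In RP they were those of *Morc1* (2.88), *Mybl1* (2.67), *Tdrd5* (2.11) and *Pld6*, a mitochondrial nuclease of piRNA processing (1.54), and in ST those of *Dnmt3l* (-5.28), *Tdrd5* (4.18), *Morc1* (2.75) and *Pnldc1*, the piRNA trimming nuclease (2.58). The call of *Pld6* in RP was lost without PWD RP replicate 2 (adjusted p = 0.051) or B6 RP replicate 2 (0.063), and that of *Pnldc1* in ST without PWD ST replicate 1 (0.082) or 2 (0.062). *Mybl1* had 10.24 and 9.35 in PWD LP and 8.45 and 8.42 in B6 LP, 13.24 and 13.37 in PWD RP and 10.85 and 10.42 in B6 RP, and 10.94 and 11.45 in PWD ST and 8.74 and 8.68 in B6 ST. All PWD arrays of a population lay above its B6 arrays, also on the second *Mybl1* probeset, which was called in LP (1.64) and RP (1.71) and not in ST (0.65, adjusted p = 0.160). This order of the arrays was no separate test. *Dnmt3l* was at 3.79 and 3.17 in PWD ST, below background, and at 8.81 and 8.72 in B6 ST. *Tdrd5* was at 8.25 and 8.43 in PWD ST and at 3.98 and 4.33, below background, in B6 ST. *Pnldc1* was at 7.12 and 6.91 in PWD ST and at 5.44 and 3.42 in B6 ST, the second of them below background, and its difference was 3.59 without B6 ST replicate 1 and 1.57 without B6 ST replicate 2. The median strain difference of the 19 genes was 0.38 in LP, 0.67 in RP and 0.71 in ST, beside 0.23, 0.31 and 0.07 for all probesets above background.

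**Figure D4:**
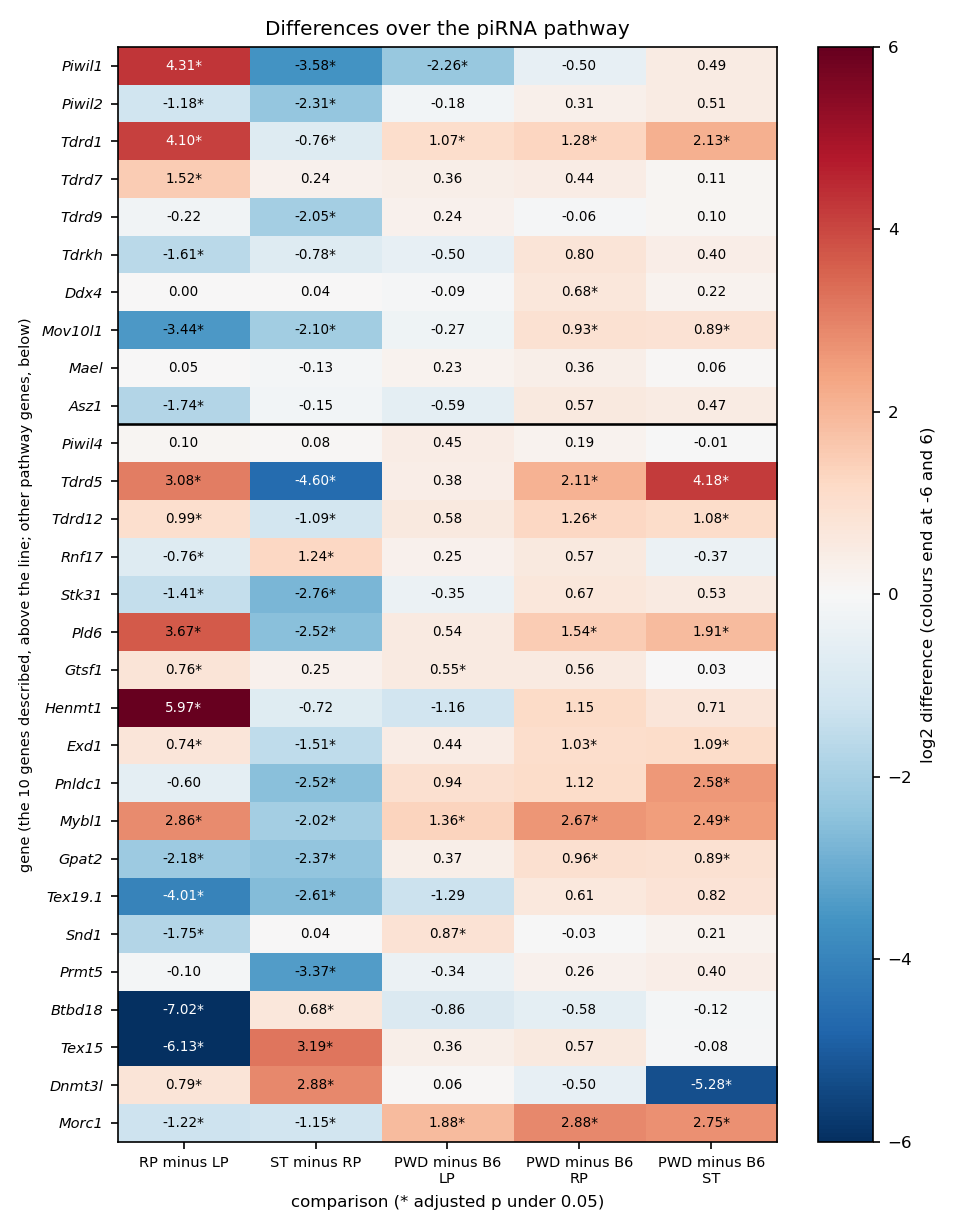
Log2 differences (colour and number in each cell, colour ending at -6 and 6) of the 10 genes described (above the line) and 19 other genes of the pathway (below it, y axis) in 5 comparisons (x axis), RP minus LP, ST minus RP and PWD minus B6 in LP, RP and ST; an asterisk marks an adjusted p under 0.05. Most asterisks of the ST minus RP column are in blue cells, and those of PWD minus B6 are in red cells except *Piwil1* in LP at -2.26 and *Dnmt3l* in ST at -5.28.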

How the data were processed

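The deposited values are log2 expression values of probesets on 12 Affymetrix arrays, which the authors made with GCRMA per the submitters' processing notes (background by probe sequence, quantile normalization, summary over probes), while the paper's methods name RMA for another Affymetrix array. Versions are not given in the sources used here. Array number limits the precision, and PWD sequence under the probes was not analysed here.

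The deposited log2 values of 45037 probesets (without 64 controls) were fitted with limma 3.58.1 (R 4.3.3), using 1 mean per group, a variance prior following the mean, Benjamini-Hochberg adjustment within each comparison and a threshold of 0.05. An F test over both interaction contrasts tested whether strain differences depended on population. Gene names came from the platform annotation, updated through RefSeq's GRCm38 table (34945 with 1 gene, 932 with several, 9160 unnamed). A gene was represented by its brightest probeset, the one with the highest mean over the 12 arrays. Promoters and gene positions are RefSeq's, with 9 of 10 genes matched for promoters.

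All 10 genes are named, and of the other 22 pathway genes the 4 with the largest called difference in each comparison. The genes, lists and tests were chosen with earlier results of these data known. The alternatives were other variance priors, array weights, quantile normalization again, centring, probesets above background only, the arrays compared only, replicate blocks, a threshold of 0.01, and leaving out each array. The script was tested on simulated data with known differences, of which a part was not called, even at the largest size simulated. The rule for passing this test was loosened after its result was seen. Plots were drawn with matplotlib 3.10.9 in Python 3.11.15, from tables made with pandas 2.3.3 and numpy 2.4.6.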

Additional observations from a re-analysis of the deposited data

Results flagged for a closer look

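For 6 genes, among the 10 described and 19 others, the strain difference depended on the population in the F test of limma. This test was passed by 23.4% of all probesets above background. *Piwil1* passed at an adjusted p of 0.0259 and *Mov10l1* at 0.02806, and both calls were lost in some alternatives (given above). Of the other pathway genes, *Tdrd5* passed at 0.002768, with PWD minus B6 at 0.38 in LP, 2.11 in RP and 4.18 in ST, and *Dnmt3l* at 0.0004448, with 0.06, -0.50 and -5.28. These calls of *Tdrd5* and *Dnmt3l* held in every alternative that was run for them. *Henmt1* passed at 0.04884 and *Snd1* at 0.04693, and their calls were lost in 15 and 17 of 20 alternatives. The difference between the RP minus LP changes of PWD and B6 was called for *Tdrkh* at 1.30 and for *Mov10l1* at 1.20, with calls lost in 11 and 5 of 20 alternatives. No explanation of these differences was tested.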

How the results depend on the processing

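Of the 60 differences of the 12 probesets in the 5 comparisons, 23 were called. Under 21 alternatives, 7 of these lost the call in at least 1 and 0 changed direction, while of the 37 not called 14 gained a call and 17 changed sign in at least 1. The cause of these changes was not tested, except that a fit with fewer arrays has fewer degrees of freedom. The counts of called probesets were 3 in LP, 3 in RP and 2 in ST for PWD versus B6, 9 for RP versus LP, 6 for ST versus RP and 2 in the F test. Array weights gave 5 in RP and 1 in the F test. Quantile normalization again gave 5 in LP, 1 in RP and 7 in the F test, and centring gave 5 in LP and 7 in the F test. Among all probesets above background, calls in LP went from 5473 to 5927 and 6630 under these scalings. Their calls in RP went from 4358 to 3311 and 3852. For the F test, and for the other alternatives, calls over all probesets were not counted. Probesets above background only gave 5 in the F test, and only the arrays compared gave 1 in LP and 0 in RP. At an adjusted p under 0.01, 1 was called in RP, 1 in ST and 0 in the F test. With 1 array left out, the counts were 2 to 3 in LP, 1 to 4 in RP, 1 to 2 in ST, 9 for RP versus LP, 6 to 7 for ST versus RP and 0 to 4 in the F test.

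The replicate block left every count but that of the F test within 1.5 times, where it gave 1 (*Piwil1*) with a block by number and 1 (*Tdrkh*) with a block within strain. Between groups of the same strain, the replicate 1 minus replicate 2 differences had correlations of -0.25 to 0.08 (6 pairs of groups). The lowest were PWD LP with PWD RP (-0.25) and PWD RP with PWD ST (-0.18). The labels do not tie a number to an animal, and numbers swapped between groups would give negative values. These correlations thus cannot decide if samples were paired by animal, and the numbers were not taken as pairs.

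Signs of small differences turned with the scaling. After quantile normalization again, PWD minus B6 in RP was -0.165 for *Piwil2*, -0.011 for *Tdrd7* and -0.041 for *Mael*, and ST minus RP was 0.071 for *Mael*. After centring, PWD minus B6 was -0.0031 in LP and -0.024 in ST for *Mael*, and in RP -0.141 for *Tdrd7* and -0.206 for *Asz1* (second probesets). RP minus LP of *Tdrd9* was then 0.037, and ST minus RP was 0.095 for *Mael*, 0.071 for *Asz1* and 0.021 for its second probeset. With 1 array left out, *Ddx4* lay between -0.085 and 0.092 for RP minus LP, -0.030 and 0.116 for ST minus RP and -0.267 and 0.086 for PWD minus B6 in LP. In ST, PWD minus B6 lay between -0.144 and 0.260 for *Mael*, -0.056 and 0.267 for *Tdrd7* and -0.369 and 0.324 for the second *Asz1* probeset. In RP it lay between -0.484 and 0.528 for that probeset and -0.293 and 0.182 for *Tdrd9*, and ST minus RP of that *Asz1* probeset lay between -0.456 and 0.050.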
